A study of Mus musculus with 20 samples.

Results

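The 31 Hox cluster genes of this RNA-seq series were followed across the dermis and epidermis of healing mouse wounds and of embryonic skin. They were chosen by name alone, as every row whose symbol is Hoxa, Hoxb, Hoxc or Hoxd followed by a paralog number, out of 19807 genes. The tables held 9 Hoxa, 9 Hoxb, 7 Hoxc and 6 Hoxd genes. RefSeq lists 39 Hox symbols, and the other 8 (Hoxa11, Hoxa13, Hoxb13, Hoxc11, Hoxc12, Hoxd11, Hoxd12 and Hoxd13) are not among the 19807 genes. The class of paralogs 9 to 13 used below therefore holds paralogs 9 and 10 and Hoxc13 only.

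Hox genes encode homeodomain transcription factors that stand in clusters on separate chromosomes, and genes at matching positions of the clusters carry the same paralog number. Low numbers lie at the 3′ end of a cluster and are used towards the head of the embryo, while high numbers lie at the 5′ end and are used towards the tail. In adult skin, fibroblasts keep a Hox pattern that records the part of the body they came from, and Hoxc13 has a separate role in the hair shaft.

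The study asked whether Sonic hedgehog (Shh) signalling gives wound skin the properties of embryonic skin that makes hair follicles. There were 20 libraries. WT wounds came from wild-type control mice, with 3 dermis and 3 epidermis libraries. Shh wounds came from K14-CreER; LSL-Shh mice, also with 3 dermis and 3 epidermis libraries. In these mice the K14 promoter limits the tamoxifen-activated Cre to basal epidermal cells, where it removes a stop cassette in front of Shh. Both wound groups were small wounds of mice 4 to 5 weeks old and of mixed strain, all given tamoxifen, and taken after the scab had come off. E14.5 is skin of embryos of that day of gestation, separated in the same way, with 4 libraries of dermis and 4 of epidermis. The sources used here give no body site for the wounds or the embryonic skin, so body region, age and wounding cannot be told apart between wound and embryo. Nothing in the labels says that libraries of a group are separate animals, so p-values measure the spread between these libraries, which may be technical.

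Expression is given as CPM, the reads of a gene scaled so that every library has the same total. The libraries held between 1407498 reads in WT dermis and 18745431 reads in E14.5 dermis, and 1 read was worth between 0.0533 and 0.71 CPM. The 3 libraries of WT dermis together therefore saw a weak Hox gene less well than any 1 embryonic library did. In 4 wound libraries fewer than 15000 genes had a read: Con-9229-Derm, Tg-9233-Derm, Con-9097-Epi and Con-9229-Epi, named as in the labels (Con for WT wounds, Tg for Shh wounds). The shallowest of them, Con-9229-Derm, held 195 Hox reads from 12 members and none from Hoxb, against 9843 Hox reads in E14.5 dermis 4. Few detected genes did not always come with few reads. Con-9097-Epi held 5329678 reads and 11179 detected genes, while Con-9098-Derm held 3752046 reads and 17521 detected genes. The summed CPM of 8 fibroblast markers was 28799 to 359833 in dermis and 647 to 3503 in epidermis, and the sum of 8 keratinocyte markers was 16978 to 116266 in epidermis and 282 to 3482 in dermis, so the tissue labels matched these markers in every library.

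The clusters lie on 4 chromosomes in the coordinates of the tables (NCBIM37). Hoxa lies on chromosome 6 on the minus strand, Hoxb spans chr11:96132771-96229570, Hoxc spans chr15:102751534-102867274 and Hoxd spans chr2:74529147-74603200, the last 3 on the plus strand. Each member is a gene of a few exons, and 16 of the 31 members overlap another row of the tables, 9 of them on the same strand (as Hoxa3 does with Hoxa4, Hoxa5 and Hoxa6, and Hoxb7 with Hoxb8). The sources used here do not say whether reads were counted by strand, so reads in these overlaps cannot be assigned with certainty.

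Promoters (the 250 bases before the start of a gene) were read from RefSeq on build GRCm38.p6, where 17 of the 31 members had an entry. The motif TGATNNAT, a joint site of Hox and Pbx proteins, was in 3 of these 17 on either strand and in 7.91% of 27025 promoters of all genes. They are printed with Hoxd9, a member with no such match, because Hoxa2, Hoxb1 and Hoxb8 were all higher in embryonic epidermis and Hoxd9 was higher in embryonic dermis. The 4 were picked after their values were seen. Capitals mark the match, which in Hoxa2 and Hoxb8 is on the strand opposite to the printed one. The coordinates are chr6:52164832-52165081 (minus strand) for Hoxa2, chr11:96365508-96365757 for Hoxb1, chr11:96281655-96281904 for Hoxb8 and chr2:74697513-74697762 for Hoxd9.
Hoxa2: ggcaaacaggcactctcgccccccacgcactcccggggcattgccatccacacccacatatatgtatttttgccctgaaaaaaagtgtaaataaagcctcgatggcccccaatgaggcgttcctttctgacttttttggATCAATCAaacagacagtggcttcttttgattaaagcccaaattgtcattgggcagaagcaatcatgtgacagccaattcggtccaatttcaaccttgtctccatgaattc
Hoxb1: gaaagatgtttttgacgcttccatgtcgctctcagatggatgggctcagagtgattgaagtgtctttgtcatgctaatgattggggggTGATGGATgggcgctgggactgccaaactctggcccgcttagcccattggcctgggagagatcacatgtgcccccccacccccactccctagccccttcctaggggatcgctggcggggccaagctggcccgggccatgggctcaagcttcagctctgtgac
Hoxb8: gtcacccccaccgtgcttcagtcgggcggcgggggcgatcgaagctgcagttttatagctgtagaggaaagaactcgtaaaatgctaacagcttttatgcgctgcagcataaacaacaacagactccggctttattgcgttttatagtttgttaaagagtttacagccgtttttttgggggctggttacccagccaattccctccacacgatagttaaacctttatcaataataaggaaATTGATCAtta
Hoxd9: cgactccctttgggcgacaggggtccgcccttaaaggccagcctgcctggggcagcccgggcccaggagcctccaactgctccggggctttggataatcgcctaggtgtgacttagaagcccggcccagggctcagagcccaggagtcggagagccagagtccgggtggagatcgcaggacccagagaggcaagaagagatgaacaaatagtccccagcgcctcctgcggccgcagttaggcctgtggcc
The match is a description of these letters. GACCACCCA, the site of the Gli proteins that act at the end of the hedgehog pathway, was in 0 of the 17 and in 0.211% of all promoters, and the homeodomain core TAATTA was in 0 of the 17 and in 4.9% of all. The Hox promoters held a median of 12 CpG dinucleotides and 58% G and C, against 6 and 52% over all promoters.

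Hoxd genes were dermal and Hoxa genes mostly epidermal in every group of libraries. Hoxd members made up 27.1 to 45.6% of all Hox CPM in the 10 dermis libraries and 0 to 3.5% in the 10 epidermis libraries. Hoxa members made up 35.2 to 55.0% in epidermis and 6.8 to 21.5% in dermis. Neither range overlapped its counterpart in the other tissue. Hoxc made up 32.8 to 56.9% in dermis and 24.3 to 32.4% in epidermis, and Hoxb 0 to 15.6% and 16.4 to 33.1%.

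**Figure D1:**
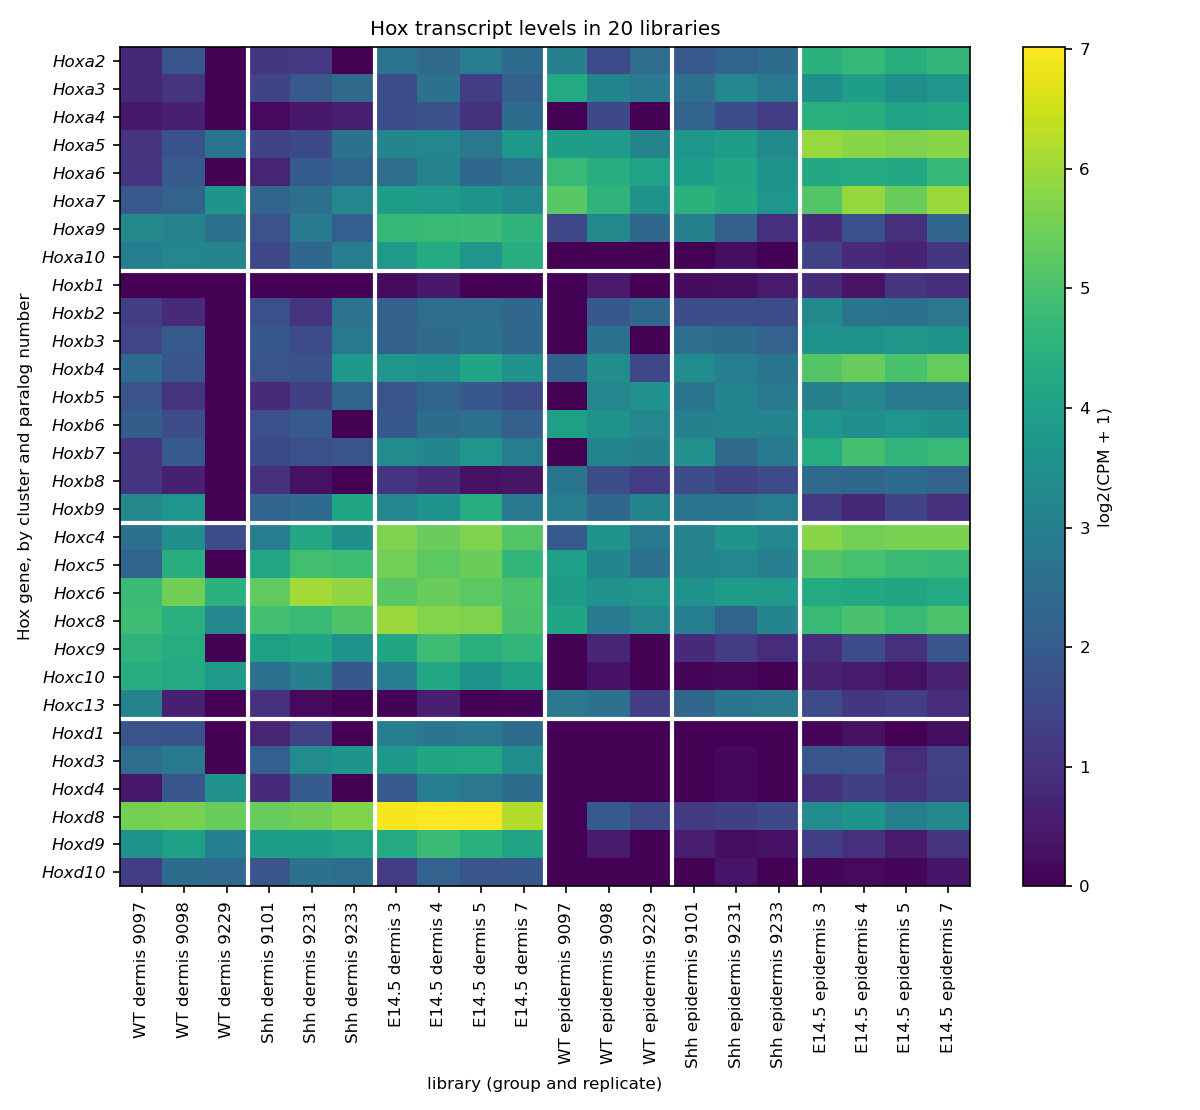
Level of 30 Hox genes (rows, by cluster and paralog number) in each of the 20 libraries (columns, by group), as log2(CPM + 1). Hoxd rows are higher in dermis than in epidermis in all 3 conditions, and Hoxa4 and Hoxa5 are highest in the 4 E14.5 epidermis libraries.

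**Figure D2:**
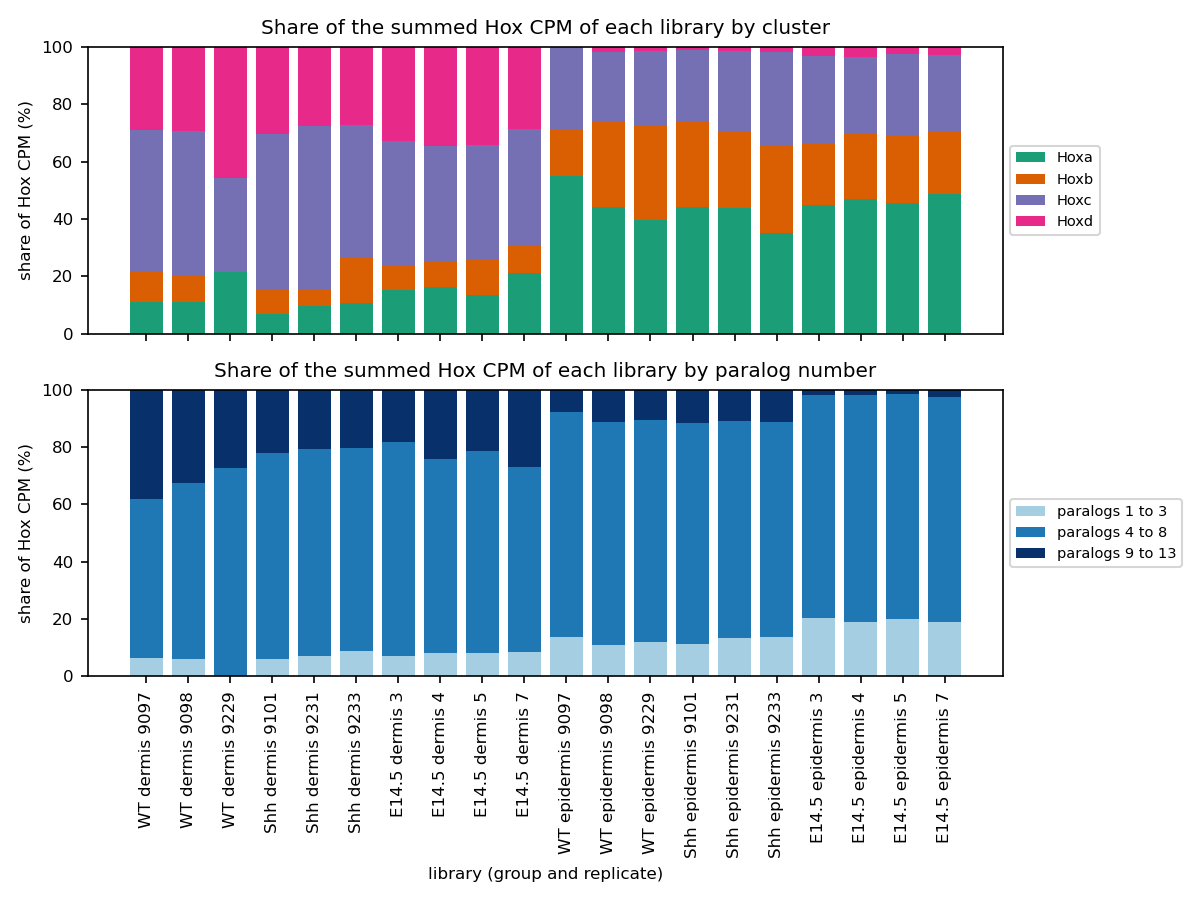
Share of the summed Hox CPM of each library, in percent, by cluster and by paralog class (1 to 3, 4 to 8, 9 to 13), one stacked bar per library. Hoxd takes 27.1 to 45.6% in dermis and at most 3.5% in epidermis, and paralogs 9 to 13 shrink to 1.5 to 2.4% in E14.5 epidermis.

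Dermis and epidermis of E14.5 skin were compared first, since these libraries were the deepest. Of the 31 members, 13 were higher in dermis and 16 were higher in epidermis (limma on log2(CPM + 1), Benjamini-Hochberg adjusted p below 0.05 over all genes). Over all genes tested, 67.5% passed, 31.9% as higher in dermis and 35.6% as higher in epidermis, so most genes differed between these tissues and the share of Hox genes that differed is read beside that. The members divided by cluster and by paralog number. All 6 Hoxd genes, 4 of 7 Hoxc, 2 of 9 Hoxa and 1 of 9 Hoxb were higher in dermis. All 7 members of paralog groups 9 and 10 were higher in dermis whichever cluster they belonged to. Along Hoxa the direction changed between Hoxa7 and Hoxa9, along Hoxb between Hoxb8 and Hoxb9, and Hoxc4 and Hoxc5, at the 3′ end of Hoxc, did not pass the test. In bulk tissue, fewer cells of a type and less RNA per cell cannot be told apart.

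**Figure D3:**
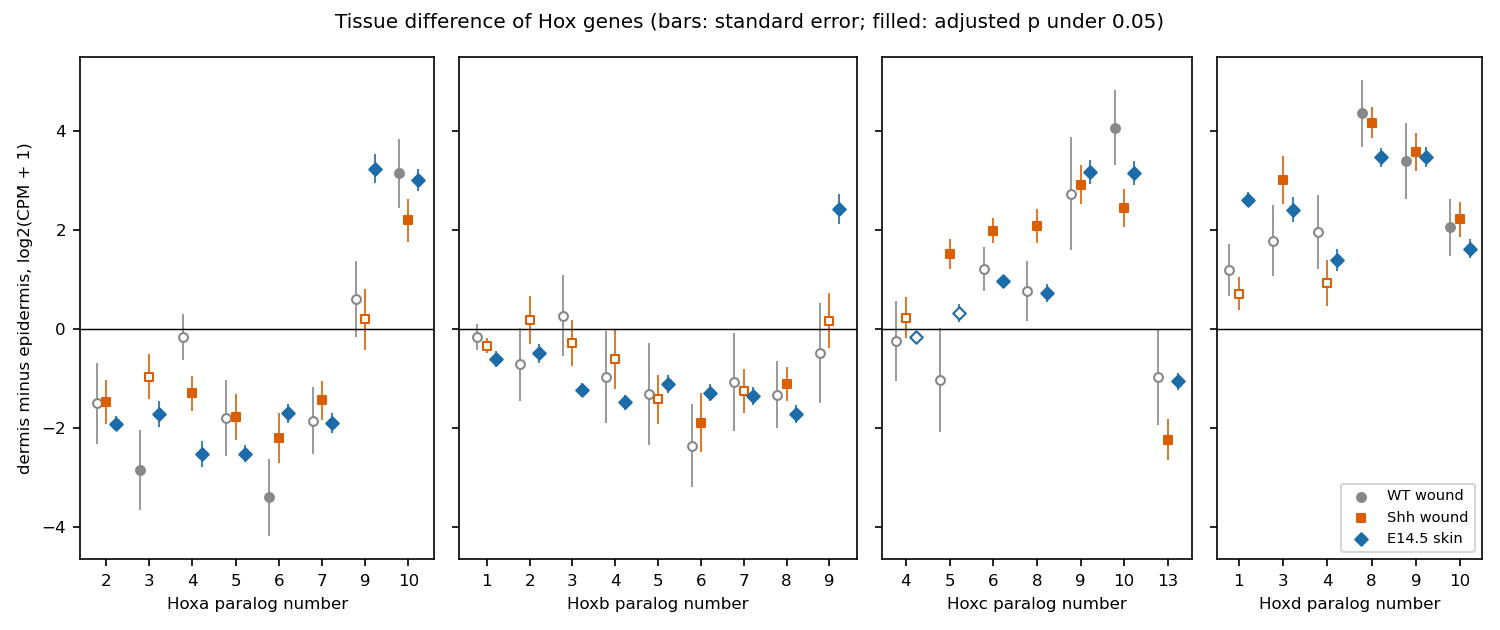
Difference between dermis and epidermis for 30 members, as log2(CPM + 1) with its standard error, by cluster and paralog number, in WT wounds (grey circles, n = 3 and 3), Shh wounds (orange squares, n = 3 and 3) and E14.5 skin (blue diamonds, n = 4 and 4). Filled symbols have an adjusted p below 0.05. Values above 0 are higher in dermis. Hoxd lies above 0 in all 3 conditions and Hoxc13 below 0. At E14.5 Hoxa and Hoxb are above 0 at paralogs 9 and 10 and below 0 at lower numbers.

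Among the Hoxd genes, Hoxd8, from the middle of its cluster, had the highest Hox level of embryonic dermis. It was at 119.9, 129, 128 and 73.5 CPM in E14.5 dermis and 9.38, 11.4, 7.16 and 8.70 CPM in E14.5 epidermis. Every dermis library lay above every epidermis library, and dermis 7 was the lowest of the 4. The difference was 3.46 on the log2 scale (SE 0.19, adjusted p = 1.25e-07 by limma).

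Library 7 also stood apart in skeletal muscle RNA. The summed CPM of 8 skeletal muscle markers was 6566 to 7803 in the other 3 E14.5 dermis libraries and 25112 in dermis 7, and its part in the lower Hoxd8 value was not tested.

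Hoxd9, which acts with the other paralogs 9 in the patterning of limbs and of the lower trunk, was at 18.9, 26.5, 20.7 and 16.3 CPM in E14.5 dermis and 1.47, 0.909, 0.428 and 1.06 CPM in E14.5 epidermis. Again no epidermis value reached a dermis value. Its log2 difference was also 3.46 (SE 0.21, adjusted p = 2.19e-07 by limma). Hoxd1, at the 3′ end of the cluster, was at 4.56 to 7.15 CPM in dermis and 0 to 0.242 CPM in epidermis (2.61, SE 0.16). Hoxd3 differed by 2.40 (SE 0.25), Hoxd10 by 1.61 (SE 0.20) and Hoxd4 by 1.39 (SE 0.22), each past the adjusted p with non-overlapping libraries. The Hoxd genes thus stood on the same side from paralog 1 to paralog 10.

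Relative to dermis, Hoxd RNA of E14.5 epidermis lay in a range that overlapped that of fibroblast markers. The epidermal mean was 2.10 to 24.9% of the dermal mean over the 6 Hoxd genes, with a median of 6.78%, and 2.82 to 19.3% over the 8 fibroblast markers, with a median of 4.59%. Over all 13 members higher in dermis it was 2.10 to 58.7%, with a median of 8.08%, so some lay above the fibroblast markers. The 16 members on the epidermal side were set beside keratinocyte markers in the same way. Their dermal mean was 5.32 to 65.4% of the epidermal mean, with a median of 25.3%, while the 8 keratinocyte markers were at 1.93 to 4.50%. The part of carried-over tissue in either was not tested.

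The Hoxa genes from Hoxa2 to Hoxa7 were higher in embryonic epidermis. Hoxa5, needed for the lung and for the skeleton at the junction of neck and thorax, was at 8.32, 8.61, 6.002 and 12.4 CPM in dermis and 59.9, 54.0, 49.4 and 53.8 CPM in epidermis. The groups did not overlap, and the log2 difference was -2.53 (SE 0.17, adjusted p = 4.67e-07 by limma). Hoxa4 differed by the same amount, -2.53 (SE 0.26), from 1.05 to 4.56 CPM in dermis and 15.4 to 20.7 CPM in epidermis. Hoxa7 was at 14.2, 13.5, 11.4 and 9.17 CPM in dermis and 34.0, 59.4, 41.3 and 61.6 CPM in epidermis (-1.91, SE 0.20). Its epidermis libraries were all higher but spread widely.

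Hoxa2, which sets the identity of the second branchial arch, was at 5.55, 4.36, 6.87 and 4.61 CPM in dermis and 21.9, 25.1, 20.01 and 24.3 CPM in epidermis (-1.92, SE 0.15). Hoxa3, which patterns the third arch and the thymus, was at 2.19, 5.13, 1.42 and 3.42 CPM in dermis and 10.3, 14.4, 10.3 and 11.7 CPM in epidermis (-1.72, SE 0.27). Hoxa6 was at 4.69, 7.78, 4.15 and 5.35 CPM in dermis and 17.9, 19.0, 17.7 and 25.2 CPM in epidermis (-1.71, SE 0.19). In all 3 the tissues did not overlap. These neighbouring genes of Hoxa shared a direction that the next genes of the cluster did not.

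Hoxa9, a paralog 9 gene that is also needed in blood progenitors, was at 24.7, 26.2, 26.9 and 22.6 CPM in E14.5 dermis and 0.830, 2.42, 0.918 and 3.94 CPM in E14.5 epidermis. Its dermal values were all above its epidermal ones, the reverse of Hoxa7. The log2 difference was 3.23 (SE 0.29, adjusted p = 3.4e-06 by limma). A noncoding row on the same strand, 9930038K12Rik, overlaps Hoxa9 and was at most 1.21 CPM in any library. Hoxa10, which is needed in the uterus and for the lumbar skeleton, followed it with 11.8 to 19.5 CPM in dermis, 0.612 to 1.72 CPM in epidermis and a difference of 3.01 (SE 0.23).

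In Hoxb the same change of side came between paralogs 8 and 9. Hoxb8, known from mice that groom to excess when it is lost, was at 1.07, 0.828, 0.248 and 0.285 CPM in E14.5 dermis and 4.34, 3.94, 4.59 and 3.82 CPM in E14.5 epidermis. All 4 epidermis libraries were higher, with a log2 difference of -1.72 (SE 0.19, adjusted p = 1.45e-05 by limma). Hoxb9, which shapes the ribs together with the other paralogs 9, was at 8.59, 10.9, 19.4 and 6.21 CPM in dermis and 1.28, 0.727, 1.71 and 0.939 CPM in epidermis.

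For Hoxb9 every dermis library was therefore higher, though they differed from one another by about as much as their mean. Its log2 difference was 2.41 (SE 0.29, adjusted p = 3.45e-05 by limma).

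Hoxb4, which can expand blood stem cells, was at 11.7, 10.9, 16.8 and 10.7 CPM in E14.5 dermis and 34.1, 40.9, 31.2 and 40.1 CPM in E14.5 epidermis (-1.48, SE 0.15). Hoxb7 was at 9.44, 8.28, 11.6 and 6.66 CPM in dermis and 19.2, 29.7, 23.7 and 25.4 CPM in epidermis (-1.36, SE 0.18). For both genes the lowest epidermis library was above the highest dermis library. The 8 epidermal Hoxb genes differed by between -1.72, for Hoxb8, and -0.49. The weakest of these, Hoxb2, lost its call when libraries were scaled by TMM. Hoxb1, a hindbrain gene, was at most 1.10 CPM in any library.

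Hoxc differed from the other clusters in that its 3′ genes were strong in both tissues. Hoxc4, the gene at the 3′ end of the cluster, was at 49.5, 41.3, 49.9 and 34.3 CPM in E14.5 dermis and 54.0, 44.9, 48.0 and 47.8 CPM in E14.5 epidermis. These groups overlapped, and the log2 difference was -0.16 (SE 0.12, adjusted p = 0.253 by limma). Hoxc5 differed by 0.32 (SE 0.18, adjusted p = 0.148 by limma).

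Hoxc6 and Hoxc8, genes of the thoracic region, were moderately higher in dermis. Hoxc6 was at 36.2, 41.4, 37.3 and 31.7 CPM in E14.5 dermis and 19.0, 17.9, 16.9 and 18.9 CPM in E14.5 epidermis (0.97, SE 0.10), with no overlap. Hoxc8 was at 61.0, 51.9, 49.9 and 31.3 CPM in dermis and 25.9, 31.1, 25.3 and 31.7 CPM in epidermis (0.72, SE 0.18). The lowest Hoxc8 value of dermis, that of library 7, fell inside the epidermal range.

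Hoxc9 and Hoxc10 were nearly confined to dermis at E14.5. Hoxc10, which acts with the other paralogs 10 in the lumbar spinal cord and skeleton, was at 7.04, 17.5, 10.8 and 14.7 CPM in dermis and 0.575, 0.424, 0.245 and 0.626 CPM in epidermis. Every dermis value was above every epidermis value, with a log2 difference of 3.14 (SE 0.25, adjusted p = 1.29e-06 by limma). Hoxc9 was at 16.8, 27.6, 21.1 and 23.4 CPM in dermis and 0.894, 2.12, 0.979 and 2.57 CPM in epidermis, again without overlap (3.17, SE 0.24).

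Hoxc13 ran against the other high-numbered members. It directs keratin genes of the hair shaft and nail, and mice without it lose their hair. In E14.5 skin it was at 0.0533, 0.497, 0 and 0.0569 CPM in dermis and 2.11, 1.21, 1.47 and 0.876 CPM in epidermis. Each epidermis library was higher than each dermis library, and the log2 difference was -1.06 (SE 0.18, adjusted p = 0.000381 by limma).

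**Figure D4:**
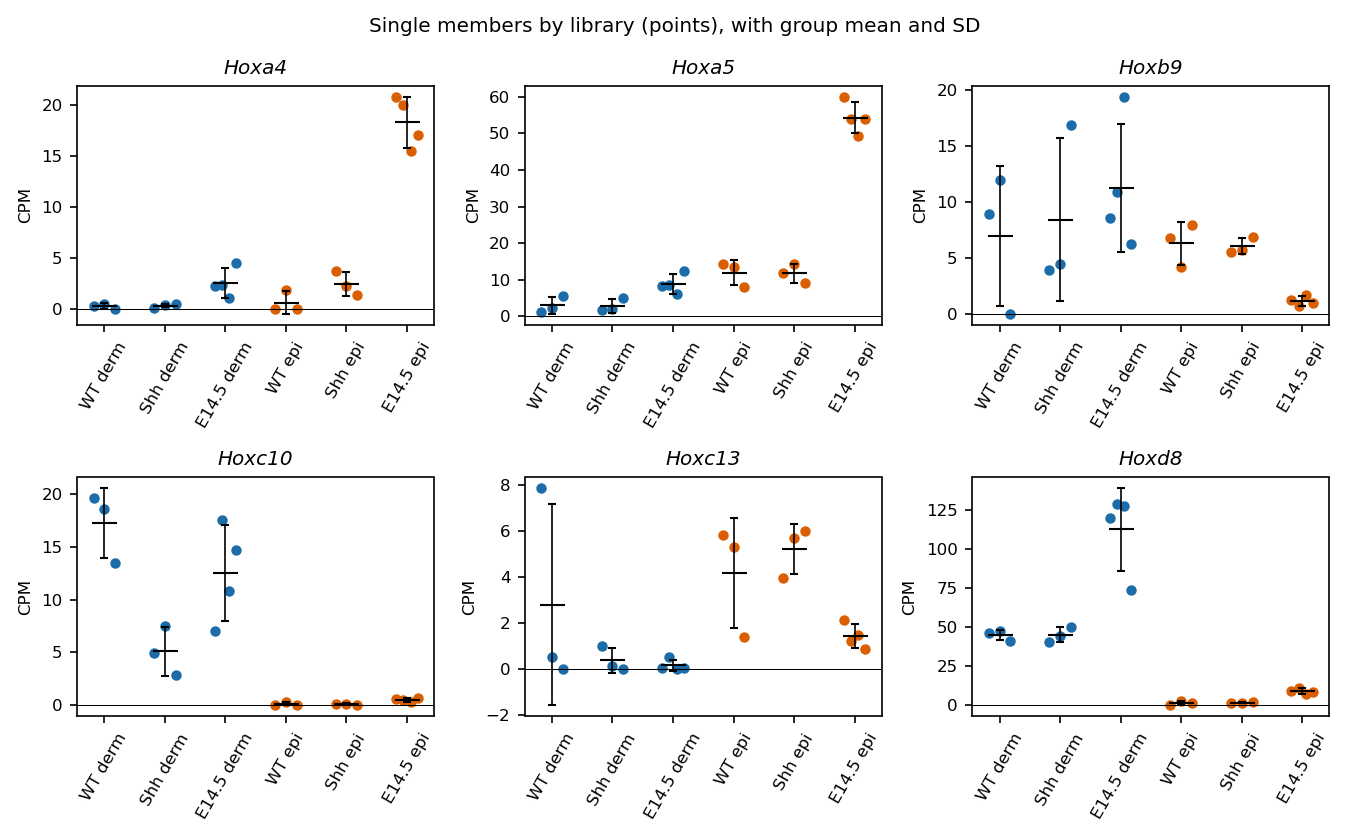
CPM of 6 members in every library, with the mean and SD of each group (n = 3 for the wounds and n = 4 for E14.5), dermis in blue and epidermis in orange. Hoxa4 and Hoxa5 rise in E14.5 epidermis, Hoxb9 is lowest there, Hoxc10 is dermal, Hoxc13 is epidermal apart from Con-9097-Derm, and Hoxd8 is dermal in all 3 conditions.

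Per kilobase of exon, a scale on which genes can be compared with each other, the order of the members differed between the tissues. Hoxd8 led in E14.5 dermis with 41.0 CPM per kb, followed by Hoxc8 at 26.0, Hoxc6 at 23.2 and Hoxc4 at 17.0. In E14.5 epidermis Hoxa5 led with 28.9 CPM per kb, followed by Hoxa6 at 22.8, Hoxa7 at 19.7 and Hoxb7 and Hoxc4 at 19.0 each. Exon lengths came from another annotation (GENCODE M21) than the one the reads were counted on, and Hoxd4 had none.

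The same division was then read in wounds, which share no library with E14.5. In WT wounds 5 members passed as higher in dermis (Hoxa10, Hoxc10, Hoxd8, Hoxd9 and Hoxd10) and 2 as higher in epidermis (Hoxa3 and Hoxa6), where 23.9% of all genes passed, 10.5% as higher in dermis and 13.4% as lower. In Shh wounds 10 passed as higher in dermis and 8 as higher in epidermis, where 33.0% of all genes passed, 13.4% and 19.6% in the same order. With the replicate block, a fit in which libraries of the same number share a term, 10 were higher and only Hoxa5, Hoxa6 and Hoxc13 lower, where 18.9% of all genes were lower. Of the 29 members called at E14.5, 26 had the same direction in WT wounds and 28 in Shh wounds, and the same was true of 80.4% and 81.9% of all genes called at E14.5. Among members called in both, 7 of 7 and 17 of 17 had the same direction, against 93.7% and 92.1% of all such genes.

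Hoxd8 kept its place in both kinds of wound. In WT wounds it was at 46.1, 47.7 and 41.2 CPM in dermis and 0, 2.99 and 1.87 CPM in epidermis. In Shh wounds it was at 40.6, 44.5 and 50.2 CPM in dermis and 1.30, 1.53 and 1.95 CPM in epidermis. No epidermis library came near a dermis library, and the log2 differences were 4.35 (SE 0.67, adjusted p = 0.000644) and 4.16 (SE 0.31, adjusted p = 3.91e-05) by limma.

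Hoxc10 was likewise dermal. It was at 19.7, 18.7 and 13.5 CPM in WT dermis and 0, 0.272 and 0 CPM in WT epidermis, and at 4.92, 7.50 and 2.81 CPM in Shh dermis and 0.0925, 0.102 and 0 CPM in Shh epidermis. The log2 differences were 4.06 (SE 0.76, adjusted p = 0.00237) and 2.44 (SE 0.39, adjusted p = 0.00207) by limma. Hoxa10 was at 7.15, 8.53 and 7.82 CPM in WT dermis and had no read in WT epidermis, which allows up to 0.408 to 1.41 CPM a library (3 reads). On the epidermal side Hoxa6, a gene of the middle of Hoxa, was at 1.07, 2.93 and 0 CPM in WT dermis and 25.9, 20.3 and 15.9 CPM in WT epidermis, with a difference of -3.40 (SE 0.78, adjusted p = 0.00816 by limma). These groups did not overlap either.

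The wound values of the other strong members showed the same sides with more spread. Hoxd9 was at 11.1, 15.2 and 7.10 CPM in WT dermis, 0, 0.408 and 0 CPM in WT epidermis, 14.1, 14.1 and 15.6 CPM in Shh dermis and 0.463, 0.204 and 0.279 CPM in Shh epidermis. Hoxc6 was at 26.5, 44.2 and 21.3 CPM in WT dermis, 13.7, 11.0 and 11.7 CPM in WT epidermis, 38.7, 64.5 and 56.6 CPM in Shh dermis and 11.2, 13.8 and 12.6 CPM in Shh epidermis. In neither gene did the tissues overlap. Hoxc8 was at 27.5, 20.8 and 8.53 CPM in WT dermis, 16.9, 6.25 and 8.43 CPM in WT epidermis, 28.5, 26.0 and 32.9 CPM in Shh dermis and 7.22, 3.78 and 8.23 CPM in Shh epidermis. Its tissues overlapped in WT wounds and not in Shh wounds, where it was higher in dermis by 2.07 (SE 0.34, adjusted p = 0.00219 by limma).

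Among the epidermal members, Hoxa5 was at 1.07, 2.40 and 5.68 CPM in WT dermis, 14.3, 13.5 and 7.96 CPM in WT epidermis, 1.64, 1.999 and 5.10 CPM in Shh dermis and 11.9, 14.2 and 9.07 CPM in Shh epidermis. Hoxa7 was at 2.86, 3.73 and 11.4 CPM in WT dermis, 36.0, 22.7 and 11.2 CPM in WT epidermis, 3.93, 5.00 and 8.42 CPM in Shh dermis and 21.7, 18.1 and 11.998 CPM in Shh epidermis. Hoxa5 did not overlap between tissues in either wound, whereas Hoxa7 did in WT wounds, through Con-9229-Derm. In Shh wounds both passed as higher in epidermis, by -1.79 (SE 0.46, adjusted p = 0.0199) and -1.45 (SE 0.40, adjusted p = 0.0247) by limma.

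Of the Hoxb genes in wounds, Hoxb4 was at 4.29, 2.67 and 0 CPM in WT dermis, 3.56, 10.1 and 1.87 CPM in WT epidermis, 2.46, 2.37 and 12.5 CPM in Shh dermis and 9.71, 6.94 and 5.58 CPM in Shh epidermis. Hoxb7 was at 1.07, 2.93 and 0 CPM in WT dermis, 0, 8.02 and 7.49 CPM in WT epidermis, 1.97, 2.25 and 2.55 CPM in Shh dermis and 10.8, 4.39 and 6.28 CPM in Shh epidermis. Hoxb4 overlapped between tissues in both kinds of wound and Hoxb7 in WT wounds. Hoxb9 was at 8.94, 11.99 and 0 CPM in WT dermis and 3.93, 4.50 and 16.8 CPM in Shh dermis, a mean above that of Hoxb4 in both. In this cluster Hoxb6 and Hoxb8 passed in Shh wounds, both higher in epidermis, and none passed in WT wounds.

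Hoxc13 in wounds was split by 1 library. It was at 7.87, 0.533 and 0 CPM in WT dermis, 5.82, 5.30 and 1.41 CPM in WT epidermis, 0.983, 0.125 and 0 CPM in Shh dermis and 3.98, 5.72 and 5.999 CPM in Shh epidermis. Con-9097-Derm was above all WT epidermis libraries, while the other dermis libraries were below them. The sum of 6 hair shaft markers in Con-9097-Derm was 167.0 CPM, against 2.1 and 0 CPM in the other WT dermis libraries, and its part in the Hoxc13 value was not tested. In Shh wounds the difference was -2.24 (SE 0.42, adjusted p = 0.00428 by limma), and in WT wounds it was -0.98 (SE 0.97, adjusted p = 0.52 by limma).

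Scaling moved these tissue differences less. The median over genes that reached 50 CPM was -0.74 in WT wounds, -0.62 in Shh wounds and -0.22 at E14.5, and -0.33, -0.48 and -0.17 after TMM scaling. With TMM scaling 6 members were higher in dermis and 2 lower in WT wounds (23.1% of all genes passed), 10 and 8 in Shh wounds (32.4%) and 13 and 15 at E14.5 (66.9%). The wound counts depended more on single libraries. Without Con-9229-Derm the WT count was 9 higher and 4 lower, where 2455 and 2321 of 19314 genes passed in that order. Leaving out the WT libraries of few detected genes left 2 dermis libraries and 1 epidermis library, so no count is read from that fit. DESeq2 called 11 members, where it called 25.9% of all genes. Without Tg-9101-Epi or without Tg-9231-Epi the Shh count was 10 higher and 1 lower each time, where 2852 of 19626 genes and 13.5% of all genes were lower.

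Next, E14.5 skin was compared with WT wounds within each tissue. The deposited scaling matters here: over genes whose mean reached 50 CPM the median log2 difference was 0.91 in dermis and 0.61 in epidermis, and TMM scaling brought these to 0.12 and 0.08. Differences between stages are on the deposited scale unless TMM is named. Before TMM scaling, 17 members were higher at E14.5 in dermis and 0 lower, where 56.0% of all genes passed, 49.4% as higher and 6.63% as lower. After TMM scaling 5 were higher and 1 lower, where 39.4% of all genes passed, 25.5% as higher. On recovered reads edgeR called 6 members, 4 higher and 2 lower, and 39.5% of all genes. DESeq2 called 7 members, 5 higher and 2 lower, and 45.2% of all genes. The median Hox difference was 1.27 before and 0.65 after scaling, and the median of all genes was 0.78 before and 0.26 after. In dermis the share of Hox genes that rose was thus near that of all genes on the first scale and below it on the second. Without E14.5 dermis 4 the first count was 10 higher and 0 lower, where 8197 of 19711 genes were higher and 1105 lower.

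Markers of other cell types also moved with stage. In dermis the median of the summed marker CPM was 57.6 in WT wounds and 7270 at E14.5 for 8 skeletal muscle genes, 168 and 756 for 6 endothelial genes, 1885 and 127 for 6 immune genes and 262977 and 30297 for 8 fibroblast genes, with no overlap of libraries in any of these lists. The fibroblast sum was mostly Col1a1, Col1a2 and Col3a1. Gene by gene, 2 of the 8 were higher and 3 lower at E14.5 (median log2 difference -0.29), beside 49.4% and 6.63% of all genes. Mean Col1a1 went from 127428 to 7073 CPM, while Pdgfra went from 311 to 528 CPM and Twist2 from 106 to 360 CPM. After TMM scaling 1 was higher and 5 lower. In epidermis the median of the summed marker CPM was 5.30 and 1875 for skeletal muscle, 525 and 21.3 for immune cells and 101142 and 19540 for keratinocytes, again with no overlap. The keratinocyte sum was mostly Krt1, Krt10 and Dsp. Gene by gene, 1 of the 8 was higher and 4 lower (median -0.40), beside 47.7% and 11.4% of all genes. Mean Krt1 went from 42317 to 4117 CPM, while Krt5 went from 2194 to 2336 CPM and Trp63 from 270 to 564 CPM. After TMM scaling 0 were higher and 6 lower. Their part in the Hox differences was not tested.

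In epidermis 19 members were higher at E14.5 and 1 was lower, where 59.1% of all genes passed, 47.7% as higher and 11.4% as lower. After TMM scaling 15 were higher and 2 lower, where 49.9% passed, 33.6% as higher. By edgeR 10 were higher and 2 lower, where 43.1% of all genes passed, and by DESeq2 11 were higher and 5 lower, where 49.5% passed. The median Hox difference was 1.10 before and 0.91 after scaling, and that of all genes 0.66 and 0.34. Here the 3′ and middle genes gained most.

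**Figure D5:**
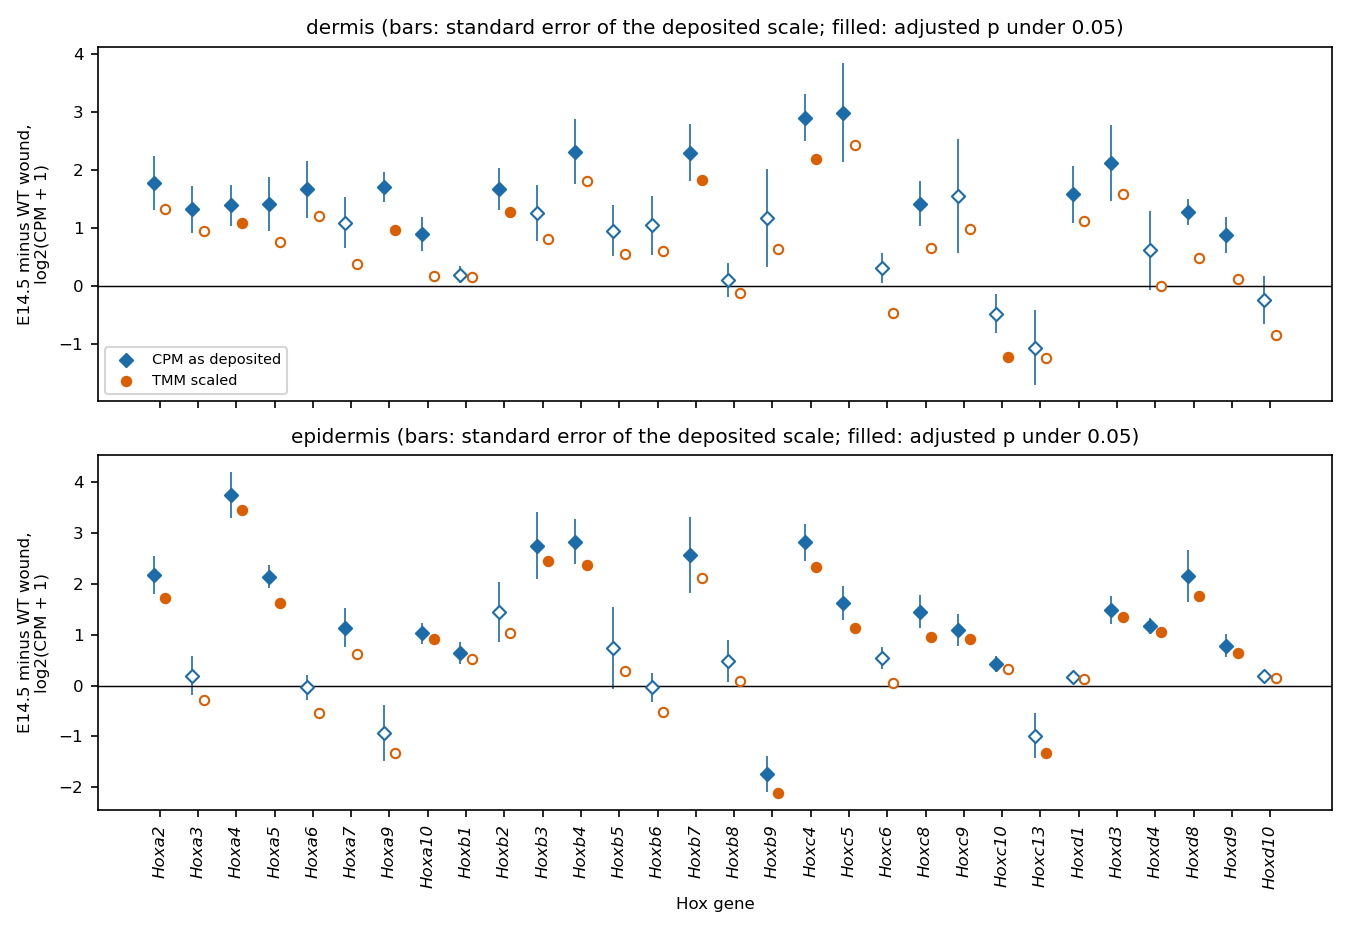
Difference between E14.5 skin and WT wounds for 30 members, as log2(CPM + 1), in dermis and in epidermis, on the deposited scale and after TMM scaling (n = 4 and 3). Values above 0 are higher at E14.5. Scaling lowers nearly all values by a similar amount, Hoxa4 stays the highest of those shown in epidermis, and Hoxb9 lies below 0 there on both.

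Hoxa4 was at 0, 1.90 and 0 CPM in WT epidermis and 20.7, 19.9, 15.4 and 17.03 CPM in E14.5 epidermis. The lowest embryonic library was far above the highest wound library. The log2 difference was 3.75 (SE 0.46, adjusted p = 0.000283 by limma), or 3.46 after TMM scaling.

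Hoxb4 (2.83, SE 0.44), Hoxc4 (2.82, SE 0.36) and Hoxa5 (2.14, SE 0.23) rose as well, each with every embryonic library above every wound library. After TMM scaling the differences were 2.37, 2.32 and 1.63, and all 3 were still called. Hoxa6 and Hoxb6 did not pass, with differences of -0.04 (SE 0.24, adjusted p = 0.901) and -0.03 (SE 0.29, adjusted p = 0.922) by limma. After TMM scaling these were -0.55 (adjusted p = 0.0601) and -0.52 (adjusted p = 0.124), and DESeq2 called both lower at E14.5 (adjusted p = 0.0166 and 0.0144). Both overlap other rows, so their reads are less certain than those of Hoxb4.

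Hoxb9 was called lower in embryonic epidermis by limma, edgeR and DESeq2. It was at 6.75, 4.21 and 7.96 CPM in WT epidermis and 1.28, 0.727, 1.71 and 0.939 CPM in E14.5 epidermis. All 3 wound libraries were higher, by a log2 difference of -1.74 (SE 0.35, adjusted p = 0.00321 by limma), or -2.12 after TMM scaling. Hoxc13 had a difference of -0.98 (SE 0.44, adjusted p = 0.0856 by limma), and passed after TMM scaling (-1.33, adjusted p = 0.0337), with edgeR (adjusted p = 0.0273), with DESeq2 (adjusted p = 0.000443), and without Con-9229-Epi (-1.46, adjusted p = 0.00783). Hoxa9 had a difference of -0.93 (SE 0.55, adjusted p = 0.175 by limma) and passed with DESeq2 (adjusted p = 0.0435) and without Con-9097-Epi (-1.37, adjusted p = 0.0425). Leaving out both Con-9097-Epi and Con-9229-Epi left only Con-9098-Epi in the WT group, so no count is read from that fit.

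Shares within a library are free of the scaling between libraries. Paralogs 9 to 13 made up 7.7 to 11.1% of Hox CPM in WT epidermis, 10.8 to 11.5% in Shh epidermis and 1.5 to 2.4% in E14.5 epidermis. Paralogs 1 to 3 made up 11.1 to 13.6%, 11.4 to 13.9% and 18.8 to 20.3% in the same order. In both classes the embryonic libraries stood apart from the 6 wound libraries. In dermis paralogs 9 to 13 made up 27.2 to 38.2% in WT wounds, 20.2 to 22.2% in Shh wounds and 18.1 to 26.9% at E14.5, ranges of which the last contains the second.

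Shh wounds stood against E14.5 skin much as WT wounds did, and both comparisons share the E14.5 libraries. In dermis 0 members were higher and 13 lower in Shh wounds (50.6% of all genes passed, 8.08% as higher and 42.5% as lower). In epidermis 2 were higher and 24 lower (71.3% passed, 19.6% as higher and 51.7% as lower). After TMM scaling these counts were 1 and 5 in dermis and 2 and 17 in epidermis, with 38.8% and 66.4% of all genes. By edgeR 6 dermal members passed, 1 higher and 5 lower, with 36.8% of all genes. The 2 members higher in Shh epidermis were Hoxb9, by 1.72 (SE 0.21, adjusted p = 2.34e-05), and Hoxc13, by 1.38 (SE 0.23, adjusted p = 0.000246) by limma. Without E14.5 dermis 4 the dermal count was 0 higher and 8 lower, where 1443 of 19715 genes were higher and 6960 lower.

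Whether a stage difference was itself different between epidermis and dermis was tested as an interaction over the 14 WT and E14.5 libraries. It passed for 5 members, 2 with a greater rise in epidermis and 3 with a greater rise in dermis, where 21.2% of all genes passed, 8.46% and 12.7% in the same order. DESeq2 called 8 members and 26.3% of all genes. The interaction was 2.37 (SE 0.60, adjusted p = 0.0111) for Hoxa4 and -2.63 (SE 0.63, adjusted p = 0.00776) for Hoxa9, by limma. Hoxa9 passed under every alternative run, while Hoxa4 did not pass with edgeR or DESeq2. Hoxb9 (-2.91, SE 0.97, adjusted p = 0.0458) and Hoxa6 (-1.70, SE 0.58, adjusted p = 0.0494) passed narrowly by limma and did not pass after TMM scaling.

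Hoxa9 shows what this interaction measures. It was at 8.94, 7.73 and 4.97 CPM in WT dermis and 22.6 to 26.9 CPM in E14.5 dermis, but at 1.88, 8.84 and 4.22 CPM in WT epidermis and 0.830 to 3.94 CPM in E14.5 epidermis. Dermal libraries did not overlap between the stages, and epidermal libraries did.

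Finally, Shh wounds were compared with WT wounds. No member passed in dermis or epidermis by limma, edgeR or DESeq2, and 0.0% of all genes passed by limma in either tissue. With their own test of this RNA-seq, the authors reported Shh, Gli2 and Ptch1 as raised in Shh epidermis at a low false discovery rate. The limma fit called none of these 3 either, so its lack of calls does not show that Hox genes were unchanged. Over all genes edgeR called 0.0% in dermis and 0.0312% in epidermis, and DESeq2 0.0206% and 0.332%. Hoxb1 had no read in wound dermis and Hoxd1 none in wound epidermis, so 30 members were tested in each tissue. An unadjusted limma p below 0.05 was reached by 3 of 30 members in dermis (Hoxc5, Hoxc6 and Hoxc10), beside 2.81% of all genes. In epidermis it was reached by 3 of 30 (Hoxa4 and Hoxc9 among them), near the 9.59% of all genes. Standard errors were 0.27 to 1.08 in dermis and 0.11 to 0.95 in epidermis. Changes of several fold in weak members were thus not detectable in these libraries. The interaction of tissue and genotype passed for 0 of 31 members by limma, with 2 at an unadjusted p below 0.05, and for 0.0% of all genes, with 3.44% at an unadjusted p below 0.05.

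The member with the smallest unadjusted p in dermis was Hoxc10. It was at 19.7, 18.7 and 13.5 CPM in WT dermis and 4.92, 7.50 and 2.81 CPM in Shh dermis. No Shh library reached a WT library. The log2 difference was -1.65 (SE 0.59, adjusted p = 0.958 by limma), and it lay between -1.93 and -1.35 under the alternatives. Hoxa10 also lay lower in all Shh dermis libraries (1.80 to 6.89 CPM against 7.15 to 8.53 CPM) and Hoxa3 higher (1.64 to 4.34 CPM against 0 to 1.07 CPM), so 3 of 30 members had groups that did not overlap, beside 9.48% of all genes. In epidermis 3 of 30 members had such groups, among them Hoxc9, higher in Shh wounds, and Hoxb6, lower, beside 16.3% of all genes. The dermal count was near the share of all genes and the epidermal count below it.

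Noncoding genes inside the clusters were higher in the same tissue as the Hox genes around them. Of 12 such rows, 4 were higher in E14.5 dermis and 8 in E14.5 epidermis, beside the 67.5% of all genes that passed. Hoxb3os, beside Hoxb3, was at 4.32, 4.58, 5.75 and 5.01 CPM in dermis and 19.9, 17.6, 17.4 and 12.3 CPM in epidermis (-1.57, SE 0.17). Its epidermis libraries were all higher, as at Hoxb3. In Hoxd, 6720416L17Rik was dermal (2.41, SE 0.19). Hoxb3os overlaps Hoxb2 and Hoxb3 on the opposite strand, so their reads cannot be told apart with certainty.

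Hox proteins bind DNA together with the Pbx and Meis families, of which 9 genes were measured. Between E14.5 and WT wounds 6 of the 9 were higher at E14.5 in dermis and 8 of 9 in epidermis, where 49.4% and 47.7% of all genes were higher. The medians were 1.99 and 1.88 on the log2 scale, against 0.78 and 0.66 over all genes. After TMM scaling 4 and 8 were higher, beside 25.5% and 33.6% of all genes, with medians of 1.21 and 1.52. Meis1 was at 16.1, 26.9 and 3.55 CPM in WT dermis and 129.7, 141, 148 and 102 CPM in E14.5 dermis, with no overlap and a log2 difference of 3.32 (SE 0.53, adjusted p = 0.00106 by limma), or 2.57 after TMM scaling. At E14.5, 5 of the 9 were higher in dermis and 3 in epidermis, beside the 67.5% of all genes that passed, and none of the 9 passed between Shh and WT wounds. Meis1 was on the dermal side (1.51, SE 0.13), while Pbx3 was on the epidermal side (-1.33).

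Of 5 genes of retinoic acid and other upstream signals, 3 were higher and 1 was lower at E14.5 than in WT wounds in dermis, with a median of 0.85 beside 0.78 over all genes, of which 49.4% were higher. After TMM scaling 0 were higher and 1 was lower. In epidermis 1 was higher and 1 lower on either scale. The lower one was Cyp26b1, the enzyme that degrades retinoic acid, an inducer of 3′ Hox genes. It was at 303, 256 and 134 CPM in WT dermis, 335, 489 and 433 CPM in Shh dermis and 33.8, 48.7, 38.4 and 23.9 CPM in E14.5 dermis. All 6 wound libraries were above all embryonic ones, and the difference between E14.5 and WT dermis was -2.60 (SE 0.32, adjusted p = 0.000315 by limma), or -3.39 after TMM scaling. Gdf11, a signal that moves Hox borders along the trunk, was dermal in every condition (log2 difference from epidermis 3.17, SE 0.21, at E14.5).

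Among 21 Polycomb and trithorax genes, which hold Hox genes off or on, 9 were higher and 3 lower at E14.5 than in WT dermis, and 12 were higher and 3 lower in epidermis (medians 0.79 and 1.07). Over all genes 49.4% and 47.7% were higher (medians 0.78 and 0.66), so the dermal values were near those of all genes. After TMM scaling 6 were higher and 6 lower in dermis and 9 and 5 in epidermis. Ezh2, the Polycomb methyltransferase, was at 25.0, 21.3 and 4.97 CPM in WT dermis and 94.4, 102, 107 and 80.7 CPM in E14.5 dermis (2.67, SE 0.46, or 1.91 after TMM scaling). Kdm6b, which removes the mark Ezh2 makes, went the other way in dermis (-1.83, SE 0.21) and in epidermis (-1.34, SE 0.15), or -2.63 and -1.87 after TMM scaling. No gene of this list passed between Shh and WT wounds by limma.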

How the data were processed

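RNA of separated dermis and epidermis was made into ribodepleted, stranded, paired-end libraries by the authors. The submitters' processing notes name Bowtie, SAMtools, HTSeq and NCBIM37, and the sources used here give neither versions nor the strand setting of the counting. The deposited values are CPM, which the authors computed from gene counts. All values came out as whole reads within a tolerance of 0.01 when divided by the value of 1 read, so reads were recovered for count tests.

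Members were selected by symbol, and the members and gene lists were chosen with earlier results of these data known. Each comparison was fitted on its own libraries with limma 3.58.1 (trend, R 4.3.3) on log2(CPM + 1), over genes with at least 1 read, with Benjamini-Hochberg adjustment over all genes tested and a threshold of 0.05. The pseudocount shrinks differences of weak genes. Alternatives were pseudocounts of 0.5 and 0.1 CPM, a mean of at least 1 CPM, TMM scaling, no trend, the recovered reads tested with edgeR 4.0.16 and with DESeq2 1.42.0, fits over more groups, a replicate block, leaving out each library, and leaving out libraries with under 15000 detected genes. Values in every library are given for the 2 highest members of each cluster, for Hoxc8, Hoxc10 and Hoxc13, and for called members with large changes, of which some were chosen after their values were seen. The fits were tested on simulated data. A value of 0 allows up to 3 reads, which covers counting error only. Of the genes counted, 1 member and 1 cofactor are not reported here by name, and counts include them.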

Additional observations from a re-analysis of the deposited data

Results flagged for a closer look

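Of 62 groups of 4 E14.5 libraries (31 members in each tissue), 5 had 1 library far from the other 3, where chance gives about 1 in 20. Hoxd8 in E14.5 dermis was lowest in library 7, at 73.5 CPM, the library with the high muscle marker sum. Hoxb4 in E14.5 dermis was highest in library 5, at 16.8 CPM. Hoxc13 in E14.5 dermis was highest in library 4, at 0.497 CPM, a level of a few reads. Hoxa6 in E14.5 epidermis was highest in library 7, at 25.2 CPM, and Hoxb2 in E14.5 epidermis was highest in library 3, at 9.19 CPM.

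The difference between E14.5 and WT wounds was itself different between epidermis and dermis for 5 members of 31. This was by the interaction term of limma with p adjusted over all genes, of which 21.2% passed. It was 2.37 for Hoxa4 (adjusted p = 0.0111), toward epidermis. It was -2.63 for Hoxa9 (adjusted p = 0.00776), -2.91 for Hoxb9 (adjusted p = 0.0458) and -1.70 for Hoxa6 (adjusted p = 0.0494), all toward dermis.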

How the results depend on the processing

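Over the members followed through all alternatives, 1624 of 1824 values kept direction and side of the threshold, 155 kept direction but lost their call and 45 changed sign. In comparisons with calls, only called members were followed, up to 10 in each direction with the largest differences. They could lose a call but not gain one, and members that only an alternative called are not in these values. All 45 were differences between Shh and WT wounds that no test called. In dermis they were Hoxa5 (-0.0824 with TMM, -0.17 with edgeR), Hoxa7 (-0.0053 with TMM, -0.16 with edgeR, -0.19 with DESeq2), Hoxd8 (-0.12 with TMM, -0.11 with edgeR, -0.12 with DESeq2, -0.14 without the libraries of few detected genes) and Hoxb4 (-0.37 without those libraries). In epidermis they were Hoxa5 (-0.0456 with TMM, -0.0593 with edgeR, -0.11 with DESeq2, -0.20 without those libraries), Hoxc6 (-0.0071 with TMM, -0.0050 with edgeR, -0.0398 with DESeq2), Hoxd8 (-0.10 with edgeR, -0.13 with DESeq2, -0.63 without those libraries), Hoxb4 (-0.42), Hoxb7 (-0.22), Hoxc13 (-0.0325) and Hoxd9 (-0.10) without those libraries, and Hoxc10 (0.0216 with a pseudocount of 0.1 CPM). Leaving out each library in turn changed the sign of some and gave Hoxa5 -0.39 to 0.46, Hoxa7 -0.23 to 0.61, Hoxc13 -1.50 to 0.0777 and Hoxd8 -0.0778 to 0.0719 in dermis and Hoxa5 -0.24 to 0.16, Hoxa7 -0.74 to 0.0630, Hoxb7 -0.18 to 1.41, Hoxc10 -0.0842 to 0.0893, Hoxc13 -0.0891 to 0.66, Hoxc6 -0.0262 to 0.12 and Hoxd8 -0.39 to 0.61 in epidermis. The epidermal values without the libraries of few detected genes compare Shh wounds with Con-9098-Epi alone, so they are effect sizes only. The cause of the sign changes was not tested.

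Counts of members called moved by over 1.5 times as follows. For E14.5 against WT dermis the count of 17 was 6 with TMM, 6 with edgeR and 7 with DESeq2. The share of all genes went from 56.0% to 39.4%, 39.5% and 45.2% in that order. For E14.5 against WT epidermis the count of 20 was 12 with edgeR, and the share of all genes went from 59.1% to 43.1%. For Shh wounds against E14.5 the dermal count of 13 was 6 with TMM and 6 with edgeR. There the share of all genes went from 50.6% to 38.8% and 36.8%. The epidermal count of 26 was 17 with all 3 groups in the fit. That fit called 2841 genes higher and 7959 lower of 19785, against 3869 and 10223 of 19775 at first. For dermis against epidermis in WT wounds the count of 7 was 11 with DESeq2, 17 with all 20 libraries and 0 without the libraries of few detected genes, where fewer samples were left. The interaction count of 5 was 3 with either pseudocount and 8 with DESeq2. Over all genes 21.2% passed at first and 26.3% with DESeq2. The pseudocounts of 0.5 and 0.1 CPM gave 1587 and 1381 genes higher and 2274 and 1821 lower of 19806. Without the libraries of few detected genes, Con-9098-Epi alone stood for WT epidermis, so no counts are read from such fits. Leaving out each library in turn gave 10 to 20 members for E14.5 against WT dermis, 17 to 21 for epidermis, 8 to 18 and 24 to 26 for Shh wounds against E14.5, 5 to 13 for dermis against epidermis in WT wounds, 11 to 24 in Shh wounds, 28 to 29 at E14.5 and 3 to 7 for the interaction. Counts over all genes moved as well. In E14.5 against WT dermis 9741 genes were higher with every library, 8197 without E14.5 dermis 4 and 9964 without Con-9229-Derm. In Shh wounds 2637 genes were higher in dermis and 3860 lower with every library, and 4631 and 4720 without Tg-9233-Derm.

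Same-numbered dermis and epidermis libraries deviated together with correlations of 0.02 to 0.08 in WT wounds, -0.01 to 0.39 in Shh wounds and 0.07 to 0.31 at E14.5, and not every library correlated best with its own number. With so few libraries in a group, these correlations cannot decide whether a shared number marks the same animal. The main fits did not take the numbers as pairs, and the replicate block, which does, is given beside them. With the replicate block, 5 members were higher in dermis and 2 lower in WT wounds, 10 and 3 in Shh wounds, and 14 and 15 at E14.5, and the interaction count was 4. Over all genes the block gave 1879 higher and 2607 lower of 19354 in WT wounds and 2540 and 3724 of 19685 in Shh wounds. It gave 6282 and 7004 of 19712 at E14.5, and 1624 and 2593 of 19806 for the interaction. Wound libraries of few reads or few detected genes limit what could be seen of weak members.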
